A study of Gossypium hirsutum with 89 samples.

Results

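Of the 24132 probe sets of the Affymetrix Cotton Genome array, 47 set both genotypes labelled superior in fibre traits, JKC 725 and JKC 777, to the same side of the 3 inferior genotypes, JKC 703, JKC 783 and JKC 737, during fibre growth. They were chosen on the measured values themselves. The log2(signal + 4.4) of each probe set was averaged per genotype and day and then over 6, 9, 12, 19 and 25 days post anthesis (dpa), control probe sets were left out, and at least 1 genotype and day had to reach 5.5, a signal of 40.9. Of the 17764 probe sets that reached it, 47 (0.265%) had both superior genotypes above or both below all 3 inferior ones with a difference between the class means of at least 1. The superior genotypes were higher in 18 of them (0.101%) and lower in 29 (0.163%). Each is called here by a letter and its rank by the size of the difference, from L1 for the largest of the lower ones and from H1 for the largest of the higher ones, and the heatmap of group means gives the array's own name beside each. Because these values chose the probe sets, the fibre differences are given as a description with no test. The differences in 0 dpa ovules, which the choice did not use, are tested.

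The study compared 5 genotypes of upland cotton, Gossypium hirsutum, grown in the open field under natural conditions. Each was sampled at 0, 6, 9, 12, 19 and 25 dpa and 3 biological replicates were taken each time, or 2 for JKC 783 at 25 dpa, which gave 89 arrays. At 0 dpa the RNA came from the whole ovule, and on the later days from fibre alone, although the sample titles call all of them fibre. The labels do not say which fibre traits were superior, by how much, or how the genotypes are related. A class here is 2 or 3 genotypes, and all plants of a class share those few genetic backgrounds.

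A cotton fibre is a single cell that grows out of the seed coat epidermis of the ovule. It starts around anthesis, elongates through turgor and loosening of its primary wall, passes a transition stage, and then lays down a thick secondary wall of nearly pure cellulose. Upland cotton is an allotetraploid whose A and D subgenomes carry copies of most genes, and a probe set with the suffix x_at or s_at may respond to several such copies. A probe set reports hybridisation to short probes, so its signal holds both the amount of transcript and the match of the transcript to the probes, which these arrays do not separate. In these bulk samples, fewer cells of a type and less RNA per cell cannot be told apart.

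The tissue labels were checked on fibre genes. E6, an abundant fibre protein used as a fibre marker, ranged from 4791 to 32094 in fibre arrays and from 1827 to 3091 in the ovules, so it was bright in both. Other fibre markers were far lower in the ovules. H6L ranged from 7690 to 24699 in fibre and from 114 to 242 in the ovules, and KCS12 from 54.9 to 12934 and from 0.752 to 46.8. The tissues overlapped for AnnGh1, at 9718 to 25933 in fibre and 6903 to 14210 in the ovules, and for LTP3 and EXPA1. Every array had been scaled to a trimmed mean near 500.1. Median signals ranged from 59.9 to 119.8 across arrays, and replicates correlated with a median r of 0.974 (lowest 0.932). No 2 arrays were identical.

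Departures of 2 kinds within groups touch the 47 probe sets. The first concerns the arrays labelled JKC 725, 25 dpa, replicates 2 and 3. On 31 probe sets that separated JKC 725 from JKC 703 on the other days, with 1 standing for the mean of JKC 725 and 0 for that of JKC 703, replicate 1 lay at a median of 0.935, replicate 2 at 0.463 and replicate 3 at 0.034. Replicate 3 was nearer JKC 703 on all 31 and replicate 2 on all but 13, while replicate 1 was nearer JKC 725 on 30. No other array had a median position below 0.695 against any genotype it was compared with. JKC 725 and JKC 703 were compared with each other at 19 and 25 dpa only, and at 19 dpa on 5 probe sets. Their arrays of the earlier days were therefore not placed between these genotypes. The cause was not tested. Results that rest on these 2 arrays are given with and without them.

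**Figure D1:**
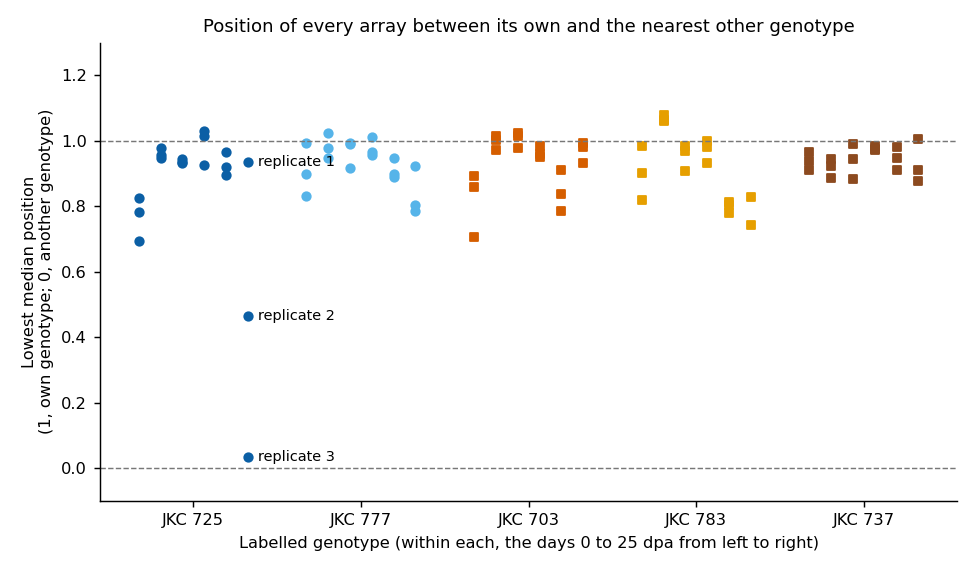
Each point is 1 of 89 arrays; the y axis gives its lowest median position, over the other genotypes, on probe sets that separate its labelled genotype (1) from another (0) on the other days, and the x axis groups arrays by labelled genotype and, within it, by day. The arrays labelled JKC 725, 25 dpa, replicates 2 and 3 lie at 0.463 and 0.034, and no other array lies below 0.695. JKC 725 and JKC 703 were compared with each other at 19 and 25 dpa only.

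The second departure is in JKC 783, where replicates of a group lay at 2 levels for some probe sets. For 7 of the 47 probe sets, the replicates of JKC 783 spanned at least 3 on the log2 scale in 3 or more of its 6 groups, against 0.37% of the 17764 probe sets. In JKC 725 this held for 2 of the 47 (0.15% of the 17764), in JKC 777 and JKC 703 for 1 each (0.07% and 0.02%), and in JKC 737 for 0 (0.03%). The 7 were L3, L4, L5, L7, L9, H2 and H6, and their values are given below.

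Taking the classes as labelled gave few probe sets among the possible pairings. There are 10 ways to take 2 of the 5 genotypes, and JKC 725 with JKC 777 came 7th in the number of probe sets set apart under the same rule. JKC 725 with JKC 703 gave 2083 (11.7% of the 17764), JKC 777 with JKC 783 gave 567, JKC 783 with JKC 737 gave 475, and JKC 777 with JKC 737 gave 418. JKC 703 gave 57 with JKC 737 and 57 with JKC 783. Below the 47 lay JKC 725 with JKC 783 at 35, JKC 777 with JKC 703 at 22, and JKC 725 with JKC 737 at 20. Without the 2 arrays of JKC 725 at 25 dpa the superior pair gave 55 and was again 7th, and JKC 725 with JKC 703 gave 2105. The largest class difference among the 47 was 5.61 on the log2 scale, and the pairs' largest differences lay between 2.36 and 5.61. A difference of 2 or more was seen in 27.7% of the 47, in 35.1% of the 57 of JKC 703 with JKC 737, and in 16.8% of the 2083.

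**Figure D2:**
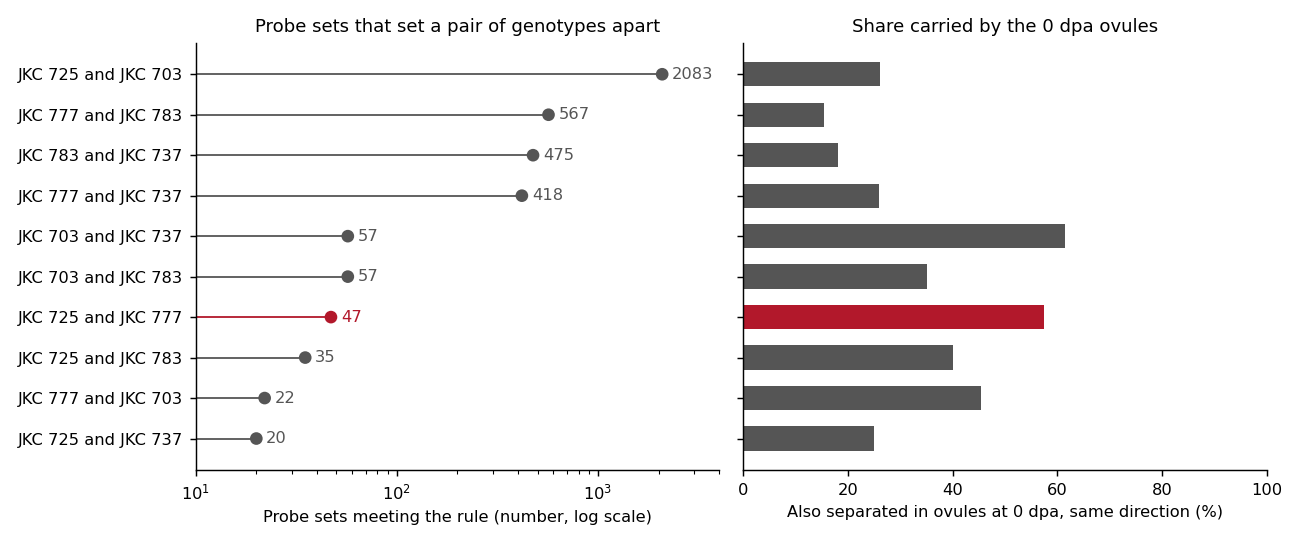
Left, the number of probe sets that meet the rule for each of the 10 pairs of genotypes, on a log axis; right, the percent of them in which the pair also lay to the same side of the other 3 genotypes in the 0 dpa ovules, with no minimum difference. JKC 725 with JKC 777 (red) has 47 probe sets, 57.4% of which were separated in the ovule, against 26.1% of the 2083 of JKC 725 with JKC 703 and 61.4% of the 57 of JKC 703 with JKC 737.

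Only 3 of the 47 are paired with a gene in the annotation used, and none of the 3 has a product name there: L2 with LOC107904077, L5 with LOC107939919, and H6 with LOC107947008. The genes and functions of the other members are not known here. Probe sets with the plain suffix _at made up 63.8% of the 47, against 49.3% of the 17764. Those with s_at made up 14.9% against 41.8%, and those with x_at 19.1% against 7.04%.

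The probe sets lower in the superior genotypes held the largest differences. L1 had signals of 0.515, 8.81 and 1295 (lowest, median, highest) in the 30 superior fibre arrays and of 432, 800 and 1344 in the 44 inferior ones. The highest superior values were 752 and 1295 in the arrays labelled JKC 725, 25 dpa, replicates 2 and 3, against 8.31 in replicate 1, and without those 2 the highest was 26.7. The other 28 superior arrays therefore lay below every inferior array. Its class difference was -5.61, with 5.06 between the nearest genotypes of the classes, and -6.03 without the 2 arrays.

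L2, paired with LOC107904077, had superior signals of 13.2, 52.4 and 3062 and inferior signals of 893, 1813 and 3209. Without the 2 arrays the highest superior signal was 118.7 and the classes again did not overlap. The class difference was -4.59. The 3 inferior genotypes had nearly the same means, within 0.18 of each other on the log2 scale, and those of L1 lay within 0.14.

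L6 had superior signals of 48.6, 106.2 and 658 and inferior signals of 337, 873 and 1834, a class difference of -2.97. Its highest superior signal without the 2 arrays was 166.7, below all inferior arrays. L8 was dim in the superior genotypes, at 0.845, 7.86 and 33.1, against 18.4, 67.6 and 147.4 in the inferior ones. Its arrays overlapped between 18.4 and 33.1 over the fibre days, and the class difference was -2.45.

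In several of the large differences, some replicates of JKC 783 lay at the level of the superior genotypes. L5, paired with LOC107939919, lay at 294, 572 and 3895 in the superior arrays, at 4432 to 9540 in JKC 703 and at 5459 to 13157 in JKC 737. In JKC 783 its replicates were 6315, 5472 and 473 at 6 dpa, 885, 9262 and 8547 at 9 dpa, 9005, 924 and 961 at 12 dpa, 2619, 12828 and 9982 at 19 dpa, and 9566 and 1107 at 25 dpa. The lower JKC 783 replicates at 6 to 12 dpa and at 25 dpa thus lay among or next to the superior arrays. The class difference was -3.11.

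L3 had superior signals of 1.7, 11.5 and 467, and inferior signals of 0.856, 524 and 1170. Without the 2 arrays of JKC 725 at 25 dpa the highest superior signal was 33.1. JKC 703 never went below 454 in fibre, nor JKC 737 below 132. The low inferior values were all from JKC 783, with 36.2 in 1 replicate at 6 dpa, 22.3 in 1 at 9 dpa, and 3.06 and 0.856 in both at 25 dpa. The class difference of -4.21 was smallest at 25 dpa, at -0.94, or -2.78 without the 2 arrays of JKC 725.

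L4 had superior signals of 0.898, 16.1 and 1009 and inferior signals of 8.79, 266 and 2705. The 1009 was the array labelled JKC 725, 25 dpa, replicate 3, and without the 2 arrays the highest superior signal was 33.8. JKC 703 was the highest genotype, with a median of 699.5, and JKC 783 spread from 8.79 to 499. The largest step between neighbouring genotypes, for this probe set, set JKC 703 apart rather than the classes. Its class difference was -3.25.

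L7 followed the classes in the order of the means only. Its fibre medians were 5.23 and 5.59 in JKC 725 and JKC 777 and 7.02 for JKC 703, so JKC 703 lay with the superior genotypes, 0.11 on the log2 scale from the nearer one. JKC 737 was bright, from 218 to 519. JKC 783 was again at 2 levels, with 350, 10.9 and 3.07 at 9 dpa and 563, 13.1 and 6.56 at 19 dpa. The class difference of -2.55 thus came from JKC 737 and from some replicates of JKC 783.

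L9, with a class difference of -2.40, had fibre medians of 17.6 and 14.8 in JKC 725 and JKC 777, of 162.3 and 175 in JKC 703 and JKC 737, and of 18.8 in JKC 783. The replicates of JKC 783 were 164.2, 9.76 and 26.8 at 9 dpa and 14.5, 187.6 and 215 at 12 dpa, so some lay at the level of the superior genotypes and others at that of the inferior ones.

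Of the probe sets higher in the superior genotypes, H1 had the largest class difference, 2.87. Its superior signals were 16.8, 219.8 and 357, and its inferior signals 4.19, 25 and 45.1. The lowest superior value, 16.8, was from the array labelled JKC 725, 25 dpa, replicate 3, beside 99.5 in replicate 2 and 141 in replicate 1. Without both arrays the superior arrays started at 127.5, above all inferior ones. It was the only one of the 18 whose classes were more than 1 apart between their nearest genotypes, at 2.57.

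In several of the others 1 genotype was far below the rest. H4 had a fibre median of 25.6 in JKC 703, while the other 4 genotypes had 852 (JKC 725), 458 (JKC 777), 380.5 (JKC 783) and 332 (JKC 737). H2 had 4.24 in JKC 703, against 305 and 156.6 in the superior JKC 725 and JKC 777 and 145 and 150.7 in JKC 783 and JKC 737. The replicates of JKC 783 were again at 2 levels for H2, with 205, 2.55 and 298 at 9 dpa and 4.17, 152.3 and 149.3 at 12 dpa, so that its mean on the log2 scale, 5.69, lay below the 7.21 of JKC 737. Without JKC 703 the class difference of H2 was 1.09 and that of H4 0.70. In H3 the low genotype was JKC 737, with a median of 16, against 418, 391, 329 and 307 in JKC 725, JKC 777, JKC 703 and JKC 783. H4, H2 and H3 had class differences of 1.93, 2.22 and 2.05, but only 0.30, 0.11 and 0.27 between the nearest genotypes of the classes. JKC 703 also spread widely for H3, with 21.8, 329 and 23.5 at 9 dpa. Without the 2 arrays of JKC 725 at 25 dpa, H3 no longer met the rule.

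The remaining 4 of the 8 largest had class differences of 1.34 to 1.497. H5 was dim throughout, with superior signals of 17.4, 49.7 and 131 and inferior signals of 1.2, 15.2 and 81.2. H8 had fibre medians of 110.7 and 73.8 in the superior JKC 725 and JKC 777, and of 62.6, 27.4 and 24.4 in the inferior JKC 703, JKC 783 and JKC 737. H7 ranged from 1.36 to 2996 in the superior arrays, or from 28.2 without the 2 arrays of JKC 725 at 25 dpa, and from 6.14 to 1424 in the inferior ones, and its nearest genotypes were 0.05 apart. H6, paired with LOC107947008, ranged from 0.4 to 659 and from 0.64 to 892. Its JKC 783 replicates were 69.3, 2.08 and 195.2 at 9 dpa and 892, 10.8 and 1.13 at 12 dpa. The arrays of the classes overlapped widely for H7 and H6.

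**Figure D3:**
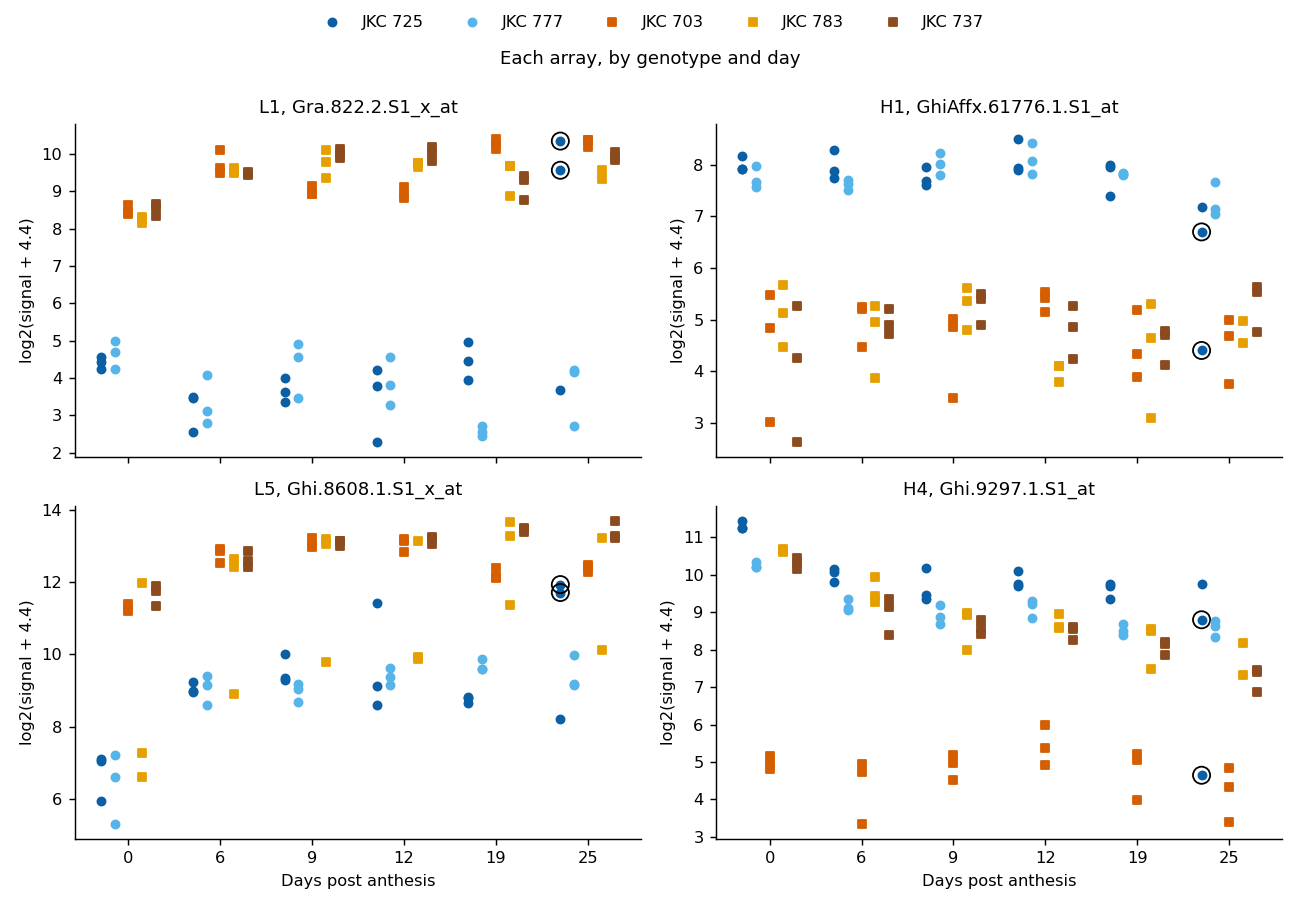
Every array's log2(signal + 4.4) for 4 of the 47 probe sets, chosen after their values were seen, against day (dpa), with superior genotypes as circles and inferior ones as squares; rings mark the arrays labelled JKC 725, 25 dpa, replicates 2 and 3. L1 and H1 separate the classes apart from the ringed arrays, L5 has JKC 783 at 2 levels, and in H4 JKC 703 alone is low.

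Across the 47, the classes were the main division of the 5 genotypes in 17. When the genotypes were ordered by their fibre mean, the largest step between neighbours fell between the classes in those 17 (12 lower, 5 higher). It set JKC 703 alone apart in 10, JKC 725 alone in 7, JKC 737 alone in 6, and JKC 703 with JKC 737 in 4. The nearest genotypes of the 2 classes were less than 0.25 apart in 14 and at least 1 apart in 12. The range among the inferior genotypes was wider than the gap between the classes in 32. With JKC 725 left out, 34 of the 47 kept a difference of at least 1, and with JKC 777, JKC 703, JKC 783 or JKC 737 left out, 40, 38, 46 and 38 did. It was kept whichever genotype was left out in 19.

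At the threshold, H18 (1.02) and H17 (1.04) lay just inside on the higher side, and the nearest outside had 0.99 and 0.97. On the lower side L29 (-1.01) and L28 (-1.03) were inside, and the nearest outside both had -0.93. L28, whose array name shares its number with that of L1, was dim, with superior signals of 2.32, 8.76 and 95.1 and inferior signals of 10.9, 21.1 and 310, and its highest superior signal was 32.9 without the 2 arrays of JKC 725 at 25 dpa. The shared number need not mean a shared gene, since 1 such pair on the array is matched to EXPA1, an expansin, and to susC, a sucrose synthase. Among both superior genotypes, 11 of the 47 averaged below 5.5, and among all 3 inferior ones 7 did.

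By day, the genotype means were separated by class in 28 of the 47 at 6 dpa, where 9.81% of the 17764 were separated either way, in 32 at 9 dpa (13.3%), in 30 at 12 dpa (12.3%), in 25 at 19 dpa (6.95%) and in 16 at 25 dpa (7.54%). Without the 2 arrays of JKC 725, 21 were separated at 25 dpa (8.79%). The rule used all 5 days, so nothing is read from these shares. The median class difference of the 29 lower probe sets ran from -1.96 at 6 dpa through -1.76, -1.59 and -1.52 to -1.39 at 25 dpa, or -1.93 without the 2 arrays. For the 18 higher ones it was 1.29, 1.33, 1.54, 1.23 and 1.06, the last 1.36 without them. In 38 of the 47 the difference at 25 dpa was larger without them.

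Only 9 of the 47 were separated on each of the 5 fibre days, and 16 of the 17764 were (0.0901%). They were L1, L2, L5, L6, L8, L12 and L13 among the lower ones, and H10 and H1 among the higher ones. When the 2 arrays of JKC 725 at 25 dpa were left out, 10 were (18 of the 17764, 0.101%), with L4 and L18 added and L13 lost. L11, L23 and L24 were separated on no single day and met the rule only in the average. No probe set had all its superior fibre arrays to one side of all inferior ones (0%). Without the 2 arrays of JKC 725 at 25 dpa, 4 of the 17764 did (0.0225%), and all 4 were members: L1, L2, L6 and H1.

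**Figure D4:**
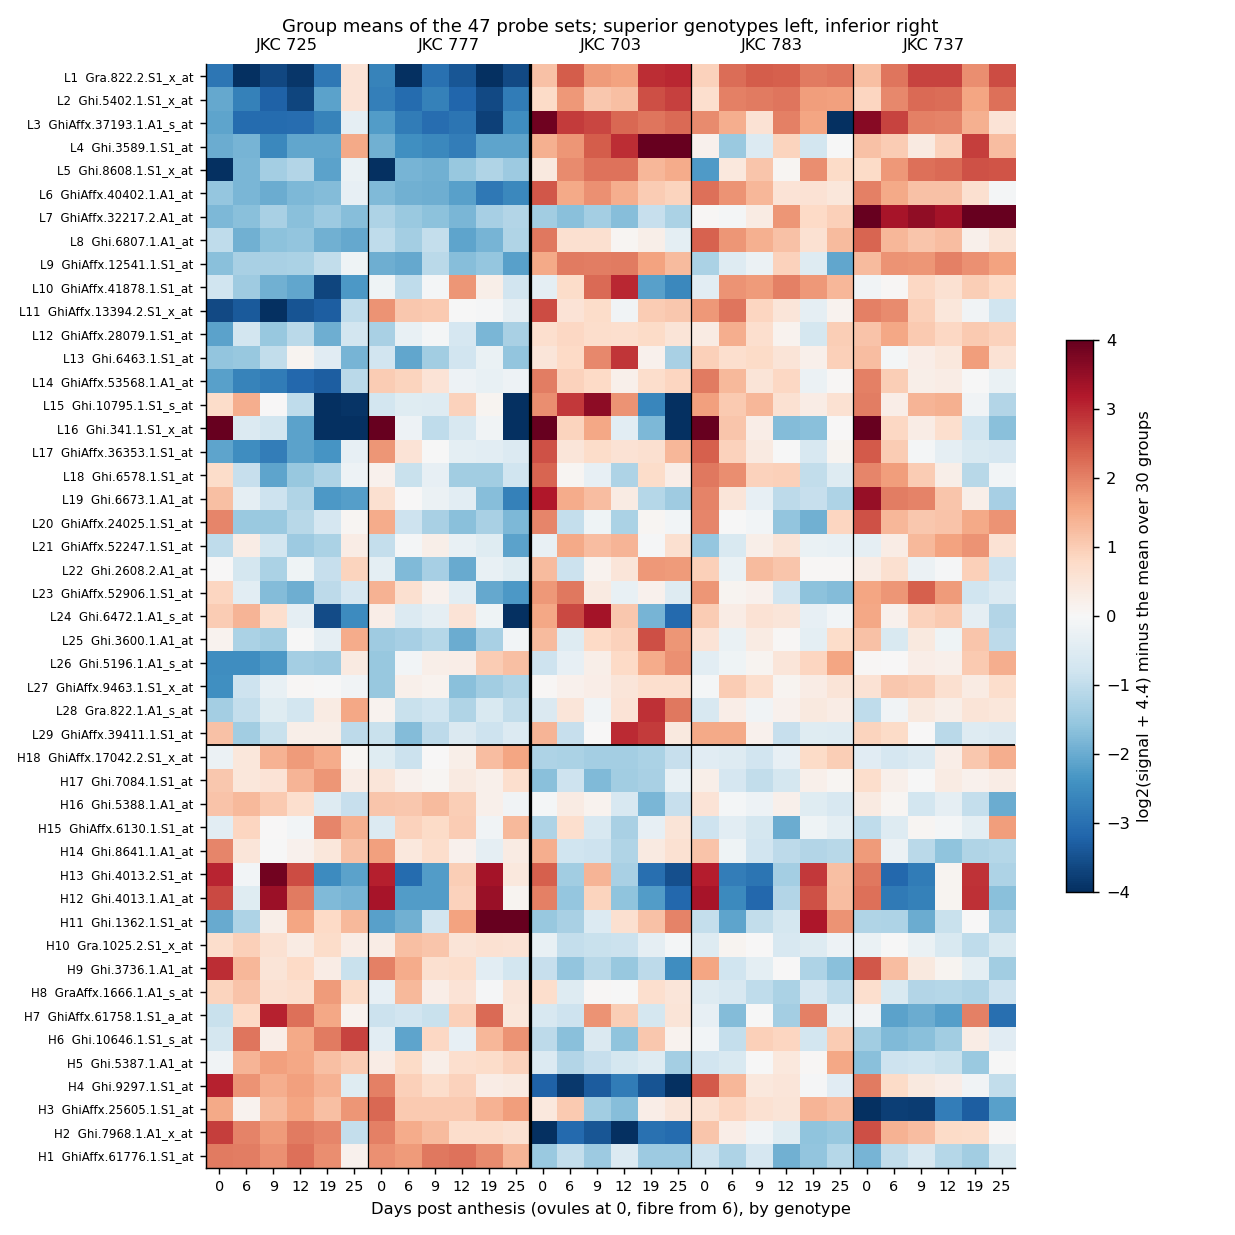
Group means of the 47 probe sets (rows, lower in the superior genotypes above the line, higher below it, labelled with the names used here and those of the array) in the 30 groups of genotype and day (columns), as log2(signal + 4.4) minus the row mean. The first 7 rows run from -5.61 to -2.55 in class difference; the JKC 725 column at 25 dpa departs from the other days of JKC 725 in most of them, and JKC 703 is the lowest genotype in H4 and H2.

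The ovules at 0 dpa asked whether the differences were present in tissue that the rule had not used. They were for a part of the 47. The class difference had the same sign as in fibre in 42 of 47 (54.4% of the 18613 tested probe sets were positive and 45.6% negative). The genotypes were separated by class with a difference of at least 1 in the fibre direction in 22 (3 higher, 19 lower), where 1.1% of the 17764 were separated by that much either way, 0.445% higher and 0.659% lower in the superior genotypes. The 6 superior and 9 inferior arrays did not overlap in 16 (2.22% of the 17764). In the other pairs of genotypes with 57 probe sets or fewer, the sign was kept in 81.8% to 98.2%, against 89.4% of the 47. Separation by at least 1 was kept in 25% to 42.1%, against 46.8%. In the pairs with more probe sets these shares were 59.4% to 72.5% and 5.1% to 9.6%. Keeping the sign in the ovule was thus not particular to the superior pair.

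When arrays were counted as replicates, limma called 27 of the 47 at 0 dpa (adjusted p under 0.05 and a difference of at least 1), 7 higher and 20 lower, all in the direction seen in fibre, against 304 of 18613 (1.63%, with 0.838% higher and 0.795% lower). The median class difference was -0.73 over the 47 and 0.03 over all tested probe sets. This test measures the spread between arrays of the same genotype and so compares these 5 genotypes, not superior with inferior genotypes in general. Its SE pools the spread of all 30 groups, fibre included, and so is not that of the ovule arrays alone. With the 5 genotype means as the replicates, limma called 1 of the 47, which was also the only one of the 18613 (0.00537%). At an unadjusted p under 0.05 it passed 25 of the 47 and 680 of the 18613 (3.65%).

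That probe set was L6. Its ovule signals were 153.8, 181.2 and 105.9 in JKC 725 and 101.8, 133.7 and 137.1 in JKC 777, against 2322, 2606 and 2440 in JKC 703, 2300, 1895 and 1886 in JKC 783, and 2066, 1293 and 2034 in JKC 737. All 6 superior arrays lay below all 9 inferior ones. The difference was -3.91 ± 0.20 (SE of limma over 5 genotype means, adjusted p = 0.00706), a 15-fold lower level on the offset scale.

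L1 had ovule signals of 14.5 to 27.3 in the superior and 279 to 401 in the inferior arrays. Its difference was -3.89 ± 0.31 over genotype means (limma, adjusted p = 0.0621), short of the threshold, and -3.89 ± 0.40 over arrays (adjusted p = 2.2e-11). L2 lay at 56.1 to 132.8 against 668 to 934, a difference of -3.16 ± 0.27 over genotype means (limma, adjusted p = 0.0621). Over genotype means, L1 passed the threshold in 6 of 21 alternatives and L2 in 5. Both sets of arrays were apart without overlap.

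L3 had the largest ovule difference of the 47, -5.31 ± 0.58 over arrays (limma, adjusted p = 2.3e-10). Its superior signals were 4.07 to 54.6 and its inferior signals 61.3 to 2166, the lowest of these being the first replicate of JKC 783, beside 1549 and 857. L8 lay at 8.83 to 33.9 against 122.3 to 281 (-3.29 ± 0.31, limma over arrays, adjusted p = 2.1e-12). L14 had 7.98, 1.84 and 10.7 in JKC 725 and 89.1, 99.3 and 83.7 in JKC 777, against 151.4 to 251 in the inferior genotypes, so that JKC 725 was far below JKC 777 while both were below the others (-2.63 ± 0.26, limma over arrays, adjusted p = 5.0e-12).

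For L5 and L4 the replicates of JKC 783 were spread in the ovule as well. L5 had 35.5 to 145.9 in the superior arrays, 2367 to 3763 in JKC 703 and JKC 737, and 4009, 150.4 and 92.9 in JKC 783 (-3.98 ± 0.54, limma over arrays, adjusted p = 9.9e-08). Over genotype means its adjusted p was 0.969. L4 had 20.3, 232 and 170.6 in JKC 783 (-2.87 ± 0.59, limma over arrays, adjusted p = 2.8e-04).

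Among the higher probe sets, H1 had ovule signals of 185 to 283 in the superior and 1.84 to 46.6 in the inferior arrays, with no overlap (3.33 ± 0.32, limma over arrays, adjusted p = 2.1e-12). H3 had 279 to 854 against 1.17 to 683 (3.04 ± 0.63, limma over arrays, adjusted p = 3.7e-04), with JKC 737 lowest, at 8.62, 1.17 and 1.82. H5, the third that was separated and called, was dim, at 18.4 to 41.9 against 0.37 to 36.8 (1.06 ± 0.34, limma over arrays, adjusted p = 0.025), and its call was lost in 9 of 23 alternatives. H4 and H2 were called over arrays but not separated, since JKC 783 and JKC 737 overlapped the superior range and JKC 703 was at 23.7 to 31.7 and at 0.31 to 1.31. L7 was called as well (-2.498 ± 0.72, limma over arrays, adjusted p = 0.0117), with 525, 515 and 536 in JKC 737 and at most 8.16 in JKC 703. Of the 2 just above the threshold on the higher side, H17 was called (1.02 ± 0.34, limma over arrays, adjusted p = 0.0316), a call lost in 10 of 23 alternatives, and H18 was not (0.34).

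Of the members not called in the ovule, L29 and L22 had differences of at least 1, at -1.12 ± 0.44 and -1.02 ± 0.42 (limma over arrays, adjusted p = 0.0779 and 0.0867). H8 had -0.02 ± 0.28 (limma over arrays, adjusted p = 0.982), with signals of 29.3 to 126.1 in the superior and 3.1 to 116.1 in the inferior arrays. L28 had 0.14 ± 0.27, and H6 0.29 ± 0.88, with all its ovule signals at or below 31. H11 and H7 were on the other side of 0 from their fibre difference, at -0.87 ± 0.35 and -0.50 ± 0.59, neither past the threshold. L24 (-0.73 ± 0.54, limma over arrays, adjusted p = 0.406) did not pass either. Over 23 alternatives the adjusted p of L24 ran from 5.3e-04 to 0.554 (limma), with differences of -0.88 to -0.63. For H7 it ran from 0.0283 to 0.739 (limma), with differences of -0.60 to -0.42.

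**Figure D5:**
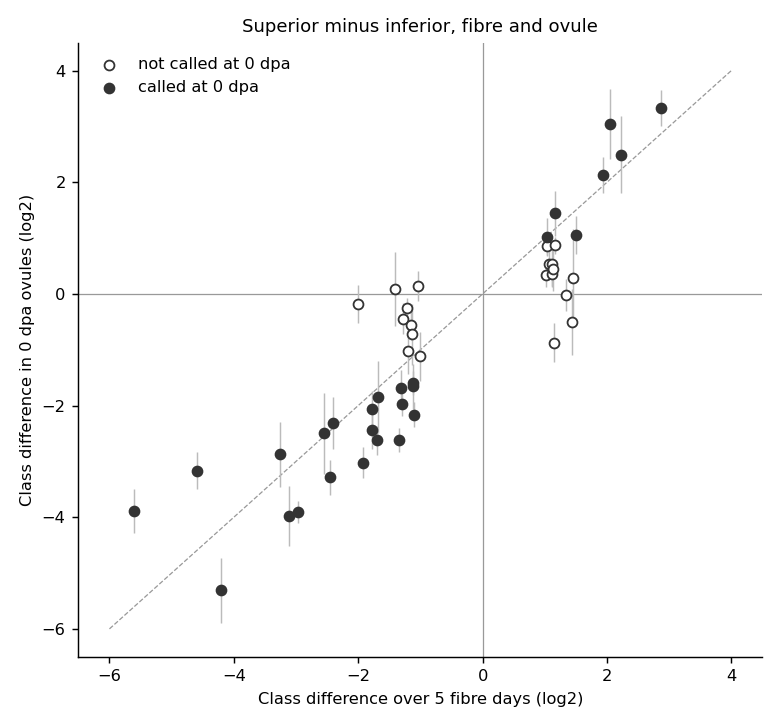
Class difference (superior minus inferior, log2) of the 47 probe sets over the 5 fibre days (x axis) and in the 0 dpa ovules (y axis), with the SE of limma over arrays; filled points are the 27 called at 0 dpa and the dashed line marks equal values. All filled points lie on the same side of 0 in both tissues, and the 20 open points lie between -1.12 and 0.87 in the ovule.

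Within genotypes, the later days (19 and 25 dpa) were set against the earlier ones (6, 9 and 12 dpa), a contrast that the average over days did not use. Averaged over the 5 genotypes, limma called 12 of the 47 (adjusted p under 0.05, change of at least 1), 4 that rose and 8 that fell, or 25.5% against 18.6% of the 18613 (8.81% rose and 9.81% fell). The SEs here measure the spread between arrays, not between genotypes. L24 fell by 2.52 ± 0.25 (limma over arrays, adjusted p = 1.3e-14). In JKC 703 it changed by -4.84, with day means of 2850.1 at 6 dpa and 62 at 25 dpa. In JKC 783 it changed by -0.68. L15 fell by 2.98 ± 0.29 and L16 by 2.28 ± 0.30, but they changed by -0.53 and -0.71 in JKC 783. None of these was called in JKC 783. H11 rose by 2.37 ± 0.16 (limma over arrays, adjusted p = 8.9e-22), from 1.98 at 6 dpa to 523 at 19 dpa in JKC 777, and H6 by 1.29 ± 0.40. H11 was not called in JKC 725 (0.85) or JKC 737 (0.73). L4 rose by 1.11 ± 0.27, but by 0.81 and short of the threshold without the 2 arrays of JKC 725 at 25 dpa. L1, H1 and L6 were not called, with 0.52, -0.40 and -0.45.

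Whether the class difference itself changed between the earlier and the later days was tested over the 5 genotype values. limma called 0 of the 47 and 0 of the 18613 (0%), and at an unadjusted p under 0.05 it passed 0 and 50 (0.269%). The largest change among the lower probe sets was 2.12 for L3 (unadjusted p = 0.052, limma), or 1.20 without the 2 arrays of JKC 725 at 25 dpa, and among the higher ones -2.01 for H13 and 0.52 for H11.

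The courses of both superior genotypes over the fibre days were also compared. The later minus earlier change differed between JKC 725 and JKC 777 in 19 of the 47 (limma over arrays, adjusted p under 0.05 and at least 1), or 40.4% against 27.6% of the 18613, and in 10 without the 2 arrays of JKC 725 at 25 dpa, or 21.3% against 27.5% of 18737. The share of the 47 was thus above that of all probe sets with these arrays and below it without them. H13 had day means of 104, 1689.7, 664, 16.5 and 22 in JKC 725 and of 9.95, 19.6, 222, 1137 and 162 in JKC 777. It fell by 4.44 in JKC 725 and rose by 3.32 in JKC 777, a difference of -7.77 ± 0.56 (limma, adjusted p = 5.9e-19), and -7.47 without the 2 arrays. It also fell in JKC 703, by 2.81, and rose in JKC 783 and JKC 737, by 4.38 and 2.76, so its course followed a division of JKC 725 and JKC 703 from the other 3. H12, whose array name shares its number, added here after its values were seen, changed by -3.48, 2.95, -1.93, 4.18 and 2.42 in JKC 725, JKC 777, JKC 703, JKC 783 and JKC 737. H11 rose by 4.53 in JKC 777 and changed by 0.85 in JKC 725, a difference of -3.68 ± 0.49 (limma, adjusted p = 3.2e-09).

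No probe set matched to the listed genes of fibre elongation and wall thickening was among the 47, of which 44 have no gene name here. For wall thickening, 8 of 10 listed genes matched 12 probe sets, among them CelA1, which makes secondary wall cellulose, susC, a sucrose synthase, and FLA6, a fasciclin-like arabinogalactan protein. Their class differences over the fibre days lay between 0.09 and 0.68 with a median of 0.29, beside 0.01 over the 17764. In none were the classes separated, and in all 12 the superior JKC 725 and the inferior JKC 703 lay above the other 3 genotypes. JKC 703 was the higher in some, as in CTL1, at 10.88 against 10.43, and JKC 725 in others, as in nst3. All 12 rose from the earlier to the later days (limma over arrays), as did 8.81% of the 18613. The largest class difference was 0.68 for nst3, with fibre means of 9.11 in JKC 725, 8.79 in JKC 703 and 6.36 to 6.71 in the other 3, on the log2 scale. For elongation, 20 probe sets of 12 genes ranged from -0.37 to 0.46 with a median of -0.09, and 3 were separated, 2 of them of XTH1, a xyloglucan endotransglucosylase, and 1 of KCS38, a 3-ketoacyl-CoA synthase. EXPA11A, an expansin, had -0.37 and Pel, a pectate lyase, -0.36, each with JKC 725 and JKC 703 low. Of these 20, 11 fell and 2 rose between the earlier and the later days (limma over arrays). Of the 18613, 9.81% fell and 8.81% rose.

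At 0 dpa limma over arrays called 1 probe set of FLA6 (1.29) among the 12 for wall thickening, and 3 of the 20 for elongation. Of all 18613 tested, 1.63% were called. These 3 were of myb109, a MYB factor (-1.29), KCS12, a 3-ketoacyl-CoA synthase (1.38), and TUA10, an alpha-tubulin (1.799). The called FLA6, KCS12 and TUA10 probe sets were dim in the ovule, with median signals of 4.96, 12.98 and 5.88, beside 66.8 for myb109. The other FLA6 probe set was not called (0.64, limma, adjusted p = 0.271). The other TUA10 probe sets were not called either, at 0.31 and, for the one with a median ovule signal of 3455, at -0.28. The 7 probe sets of fibre markers had class differences from -0.40 (LTP3, a lipid transfer protein) to -0.02, and the 3 of dividing ovule or seed cells, HIS2B, Lea5-D and Lea14-A, from -0.38 to -0.10. HIS2B, a histone, had signals of 2183 to 11066 in fibre and 4927 to 11590 in the ovule. None of these was separated by class. No listed gene of photosynthetic tissue or of pollen and flower parts matched a probe set, so those tissues were not checked.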

How the data were processed

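The deposited table gives 1 intensity per probe set and array on a linear scale, which the authors made with MAS5 per the submitters' processing notes (version not given in the sources used here). Recomputed 2% trimmed means ranged from 500.091 to 500.188 over the arrays. Intensities were converted to log2(signal + 4.4), an offset that shrinks the differences of dim probe sets. The 159 probe sets starting AFFX, RPTR or GhirRNA were left out.

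The minimum of 5.5 was read per genotype and day, which gave 47 members; per genotype it gave 45. A probe set was tested when 1 of the 30 groups reached 5.5, which kept 18613. Tests used limma 3.58.1 under R 4.3.3 (lmFit and eBayes with an intensity trend, Benjamini-Hochberg adjustment over all tested probe sets). The fits used either a mean for each group over 89 arrays or 5 genotype values. Apart from the comparison of JKC 725 with JKC 777, the tests were tried on simulated data. SE is that of limma. Replicates are labelled biological, with no word on separate plants or plots. The comparison of JKC 725 with JKC 777 in the later minus earlier change was added after the data had been seen. The number of arrays limits the precision.

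Members are printed under ranked names, with the array's probe set names in the figures. Gene names came from a table of the array's probe sets and RefSeq, which named 743 probe sets, 697 of them with 1 gene. The probe sets named are those with 1 gene, the 8 with the largest difference in each direction, up to 8 in each direction that were called and separated at 0 dpa, those next to the threshold, the extremes of the later minus earlier class difference, and for each gene list the brightest and the largest differences; others were chosen after their values were seen. The members and lists were chosen with earlier results of these data known.

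Alternatives were other offsets, quantile normalization, median centring, other minimums, days, genotypes and arrays left out, no variance trend and a replicate block. Samples with the same replicate number in different groups did not deviate together more than those with different numbers, so the numbers were not taken as pairs. At 0 dpa, correlations of their deviations ran from -0.09 to 0.075 (median 0.005), against -0.10 to 0.14 (median 0.002) for different numbers. Over all groups they ran from -0.43 to 0.37 (median 0.0007), against -0.49 to 0.45 (median -0.001), so single pairs of arrays could deviate together.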

Additional observations from a re-analysis of the deposited data

Results flagged for a closer look

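H13 moved in opposite directions in the 2 superior genotypes. The change from 6, 9 and 12 dpa to 19 and 25 dpa was -4.44 in JKC 725 and 3.32 in JKC 777 on the log2 scale, and the difference of -7.767 was past the threshold in limma (adjusted p = 5.9e-19). It was -7.47 without the arrays labelled JKC 725, 25 dpa, replicates 2 and 3. This contrast was chosen after the data had been seen.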

How the results depend on the processing

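The number of members was 47 and lay between 35 and 60 under all other settings: 57 and 35 with an offset of 1 and 16, 51 after quantile normalization, 49 after median centring, 42 to 60 with 1 fibre day left out, 44 to 50 with 1 array left out, and 55 without the 2 arrays of JKC 725 at 25 dpa, of which 45 were shared. L24 and H3 were lost there. The call at 0 dpa over 5 genotype means was of 1 member, and of 3 after median centring, 3 with no filter and 3 with no variance trend. With 1 array left out it was of 1 to 4, with 3 without JKC 725 replicate 3, 3 without JKC 777 replicate 3 and 4 without JKC 783 replicate 1. L6 was called in all 21 alternatives, with adjusted p from 0.00144 to 0.0472 (limma). L1 was called in 6 of them (adjusted p from 0.0245 to 0.0810, limma) and L2 in 5 (from 0.0367 to 0.198). L3 and L8 were called in 1 each. Over arrays at 0 dpa the count of 27 lay between 23 and 29. The later minus earlier change was called in 12 members, in 7 with an offset of 16, and in 11 to 12 with 1 array left out. The change in class difference was called in 0 members throughout. The difference between JKC 725 and JKC 777 was called in 19 members, in 10 without the 2 arrays of JKC 725 at 25 dpa, and in 16 to 25 with 1 array left out. Of 120 test values of the named members, 29 were past the threshold, none of which changed sign, and 10 of these lost the call in at least 1 alternative. Another 28, all short of the threshold, changed sign, among them the averaged change of H13 (0.64, from -0.29 to 1.91), the difference of L3 between JKC 725 and JKC 777 (1.74, down to -0.10) and the change in class difference of L1 (0.83, down to -0.22). At 0 dpa over arrays, H5 (1.06, down to 0.60, adjusted p up to 0.109, limma) was lost with an offset of 16, quantile normalization, median centring, the 0 dpa arrays alone, or without JKC 725 replicate 3, JKC 777 replicate 2, JKC 783 replicate 2 or JKC 737 replicate 2 or 3. H17 (1.02, down to 0.67, adjusted p up to 0.169, limma) was lost with an offset of 16, quantile normalization, median centring, or without JKC 725 replicate 3, JKC 703 replicate 1 or 2, JKC 777 replicate 1 or 3, JKC 783 replicate 2 or JKC 737 replicate 2. L7 was lost without JKC 783 replicate 2 (adjusted p = 0.0547, limma). The averaged change of L4 (1.11, down to 0.81) lost its call with an offset of 16, without JKC 725 or JKC 703, without the 2 arrays, and without JKC 783 at 19 dpa replicate 1 or at 25 dpa replicate 2. With the replicate number as a block, 27 members were called at 0 dpa over arrays, 12 for the later minus earlier change, and 19 for JKC 725 against JKC 777. The causes of these moves were not tested.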
